A study of Danio rerio with 3 samples.

Results

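The integrated stress response genes described here are the 10 zebrafish genes atf4a, atf4b, atf5a, atf5b, ddit3, trib3, asns, chac1, sesn2 and atf3, out of 17958 named genes that could be compared. They were chosen by their place in the ATF4 pathway, at a time when the differences between the arrays, among them those of atf5b and trib3, were already known. All their values are therefore descriptions, and no test is attached to them. Each of the 10 genes was represented by 1 probe set, so no second probe set checks its value.

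The samples were brain RNA of adult zebrafish of 3 groups, all aged 6 months, in water of 28 °C. Naive fish, labelled as the control, had a daily cycle of 14 h light and 10 h dark. Sleep-deprived fish had spent 3 days in extended light, a cycle of 24 h light and 0 h dark. Fear-conditioned fish had been trained by inhibitory avoidance learning, a task that pairs a place or movement with an aversive stimulus so that the animal comes to avoid it, and their light cycle is not stated. Strain, genotype, sex and sampling hour are not stated either, nor whether an array carried RNA of 1 fish or of a pool. There was 1 array per group, which leaves every difference below without a replicate check and the spread between fish of a group unknown. The deposited values are read as log2 signals, so a difference of 1 is 2-fold. All 14 neuron markers found on the array, as a check on the labelled tissue, had signals above the median of all values (4.99) on every array. That median covers all probe sets, most of them without a gene symbol, so the check is a loose one. The signal of slc17a6b averages a probe set at 2.84 on every array with a brighter one.

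In the integrated stress response, kinases that sense amino acid shortage, unfolded protein in the endoplasmic reticulum, viral RNA or haem and mitochondrial trouble phosphorylate the translation initiation factor eIF2. Most protein synthesis then slows, while mRNAs with upstream open reading frames, ATF4 and ATF5 among them in mammals, are translated more. ATF4 in turn activates genes of amino acid synthesis and uptake, tRNA charging, redox balance and cell death, and in mammalian neurons eIF2 phosphorylation is also known to set a limit on the formation of long-term memory.

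Against the naive array, all 10 genes had a lower signal on the sleep-deprived array, with log2 differences from -0.01 (atf5a) to -1.93 (atf5b) and a median of -0.29, whereas centring each array on the median of its named genes turned atf5a to 0.04 and left 9 below 0. Over all 17958 genes the median was 0.00, and 30.9% were lower, or 55.6% of those with unequal values. The genes atf5b and trib3 were more than 3-fold lower, ddit3 was 1.68-fold lower, and the other 7 were less than 1.5-fold apart. On the fear-conditioned array 8 of the 10 were higher than on the naive array and 2 were lower, all by less than 1.5-fold, with differences from -0.13 to 0.29. Of all genes 30.6% were higher there and 23.2% lower, or 56.8% and 43.2% of those with unequal values.

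**Figure D1:**
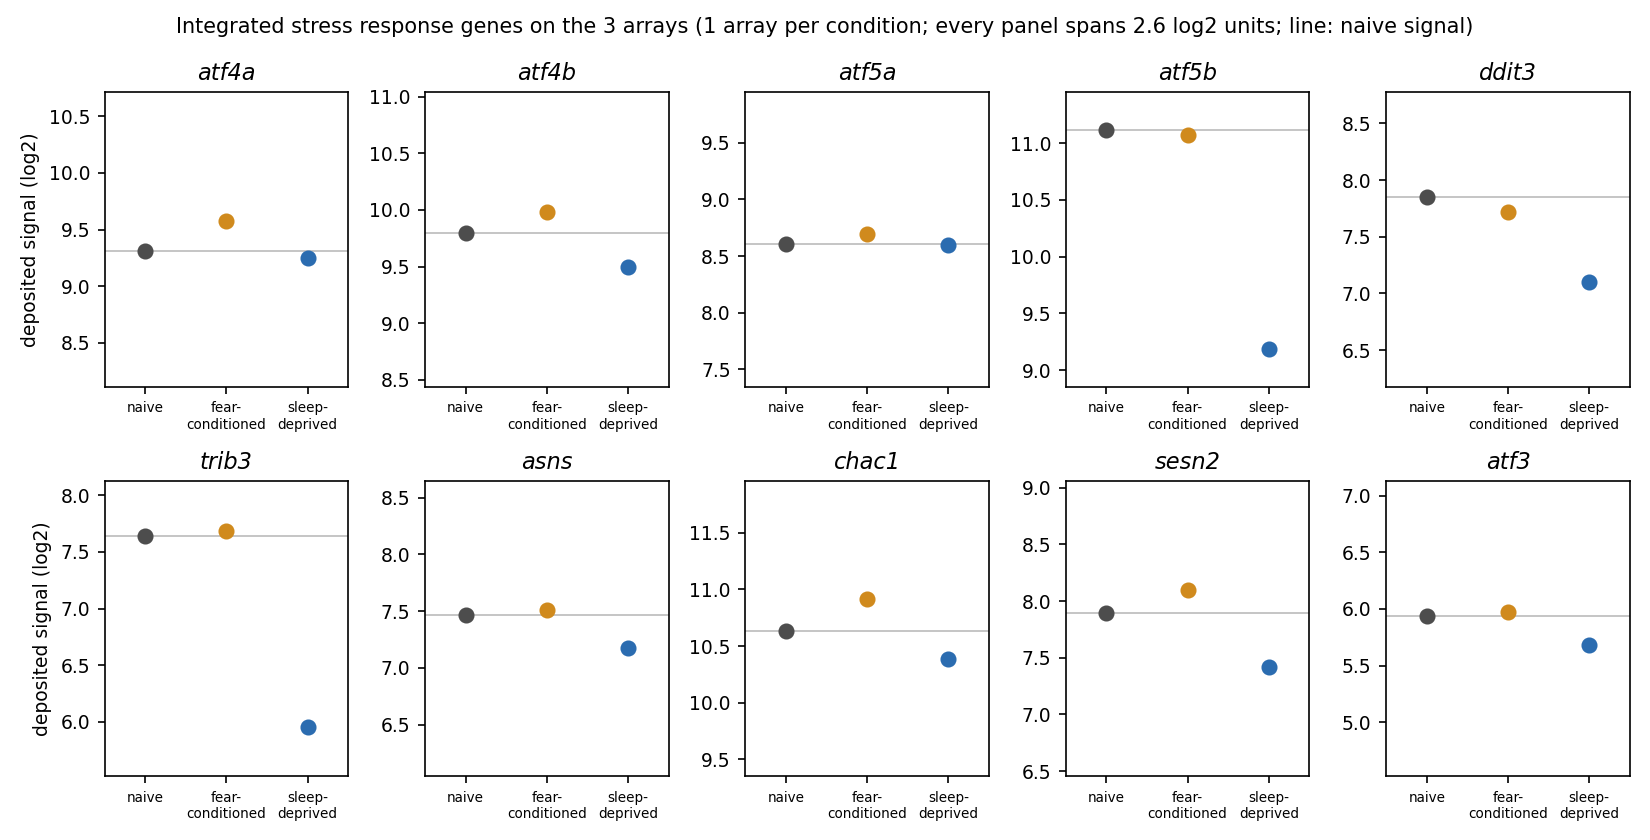
Deposited log2 signal (vertical axis) of each of the 10 genes on the naive, fear-conditioned and sleep-deprived arrays, 1 point per array with the naive signal as a line, every panel spanning 2.6 log2 units. The sleep-deprived point is the lowest in every panel, and only in the panels of atf5b and trib3 does it lie more than 1 unit below the other 2; with each array centred on the median of its named genes, the naive point of atf5a would be the lowest.

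The transcription factor genes at the top of the pathway differed from each other. The gene atf4a, 1 of 2 zebrafish counterparts of ATF4, had a log2 signal of 9.31 on the naive, 9.57 on the fear-conditioned and 9.25 on the sleep-deprived array. Its naive and sleep-deprived signals were close (-0.06), and the fear-conditioned one stood above both by 0.26 and 0.32. For atf4b, the other counterpart, the signals were 9.80 on the naive, 9.98 on the fear-conditioned and 9.50 on the sleep-deprived array. Here the naive signal lay between the others, with differences from it of -0.30 for sleep-deprived and 0.18 for fear-conditioned.

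ATF5 is a bZIP factor related to ATF4, known in mammals for a role in survival of neural cells and in the response to mitochondrial stress, and its 2 zebrafish genes had different patterns. The signal of atf5b was 11.12 on the naive and 11.07 on the fear-conditioned array, but 9.19 on the sleep-deprived array. The naive and fear-conditioned arrays were thus 0.05 apart, and the sleep-deprived array was 3.82-fold below naive, a log2 difference of -1.93. Only 11 of 17958 genes had a more negative difference, which placed atf5b at rank 12. The gene atf5a, in contrast, had signals of 8.61 on the naive, 8.69 on the fear-conditioned and 8.60 on the sleep-deprived array, a span of 0.09 that made it the flattest of the 10 genes.

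Of the stress factors that act downstream of ATF4, ddit3 encodes CHOP, a bZIP protein linked to cell death after prolonged stress in the endoplasmic reticulum. Its signal was 7.85 on the naive, 7.72 on the fear-conditioned and 7.10 on the sleep-deprived array. The sleep-deprived array was lowest by 0.75 against naive and by 0.62 against fear-conditioned, and 1.38% of all genes had a more negative difference from naive. The gene atf3, a bZIP factor induced by many kinds of stress, had signals of 5.93 on the naive, 5.97 on the fear-conditioned and 5.68 on the sleep-deprived array, still above the limit of 3.45 below which a gene was treated as dim. Its differences from naive were small, at -0.25 and 0.03.

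The pseudokinase gene trib3, whose mammalian product is induced by ATF4 and CHOP and in turn restrains them, was low on the sleep-deprived array alone, as atf5b was. Its signal was 7.64 on the naive, 7.69 on the fear-conditioned and 5.96 on the sleep-deprived array. Sleep-deprived was 3.21-fold below naive (-1.68, rank 19 from the most negative of all genes) and 3.32-fold below fear-conditioned (-1.73).

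The effector genes asns, chac1 and sesn2 differed less between sleep-deprived and naive than atf5b, trib3 and ddit3 did. The gene asns, which encodes the enzyme that makes asparagine, had signals of 7.46 on the naive, 7.51 on the fear-conditioned and 7.18 on the sleep-deprived array, a difference of -0.28 between sleep-deprived and naive. For chac1, whose product breaks down glutathione, the signals were 10.63 on the naive, 10.92 on the fear-conditioned and 10.39 on the sleep-deprived array. The naive signal of chac1 lay near the middle, and its fear-conditioned difference of 0.29 was the most positive among the 10 genes. The gene sesn2 encodes a sestrin, a protein that in mammals restrains mTORC1 when leucine is short, and had signals of 7.89 on the naive, 8.10 on the fear-conditioned and 7.41 on the sleep-deprived array. Its sleep-deprived signal was 0.48 below naive and 0.68 below fear-conditioned, so sesn2 was past 1.5-fold in the latter comparison but not in the former.

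In sleep-deprived minus naive, 2 of the 10 genes were at least 2-fold lower, where 0.668% of all genes were, and 0 were at least 2-fold higher, where 0.0947% of all genes were. At 1.5-fold, 3 were lower against a background of 2.43% and 0 were higher against 0.484%. In fear-conditioned minus naive, 0 of the 10 were past either threshold, and the shares of all genes past 2-fold were 0.184% on the lower and 0.245% on the higher side, and past 1.5-fold 0.763% and 0.83%. In sleep-deprived minus fear-conditioned, which is the difference of the other comparisons and adds no independent value, 2 of the 10 were at least 2-fold lower (0.869% of all genes) and 4 at least 1.5-fold lower (2.71%), while 0 were at least 2-fold higher (0.134%) or at least 1.5-fold higher (0.562%). Because these differences were known when the genes were chosen, the counts say nothing about how unusual the set is. The first and second comparisons share the naive array, and the genes' differences in them are therefore shown side by side only.

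**Figure D2:**
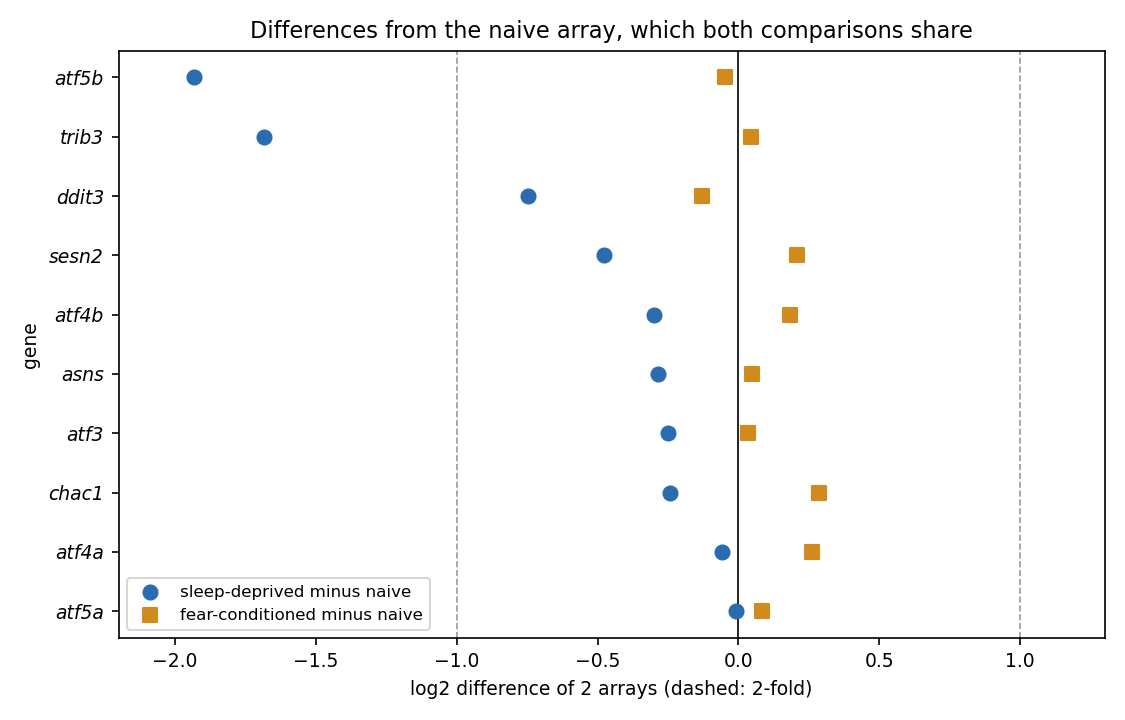
Log2 difference of the sleep-deprived array (circles) and of the fear-conditioned array (squares) from the naive array for each of the 10 genes, with 2-fold marked by dashed lines. The circles run from -0.01 to -1.93, and the squares lie between -0.13 and 0.29.

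The sleep-deprived array alone had the lowest of the 3 signals for all 10 genes, and for 9 of them with arrays centred on the median of their named genes. The same held for 23.5% of all genes. Many genes had exactly equal values on 2 arrays, 44.3% of all genes between sleep-deprived and naive, and none of the 10 did. Unrelated genes could share such a value. INCENP, acad11 and ada2b, for example, all had a mean signal of 4.9914 over the 3 arrays, which is also the median of all values. Why values are equal is not known, so equal values, here and below, are not read as a measured lack of difference. Among the 6360 genes with 3 different values, 48.6% were lowest on the sleep-deprived array. The fear-conditioned array alone was highest for 8 of the 10, against 20.1% of all genes and 38.1% of those with 3 different values.

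**Figure D3:**
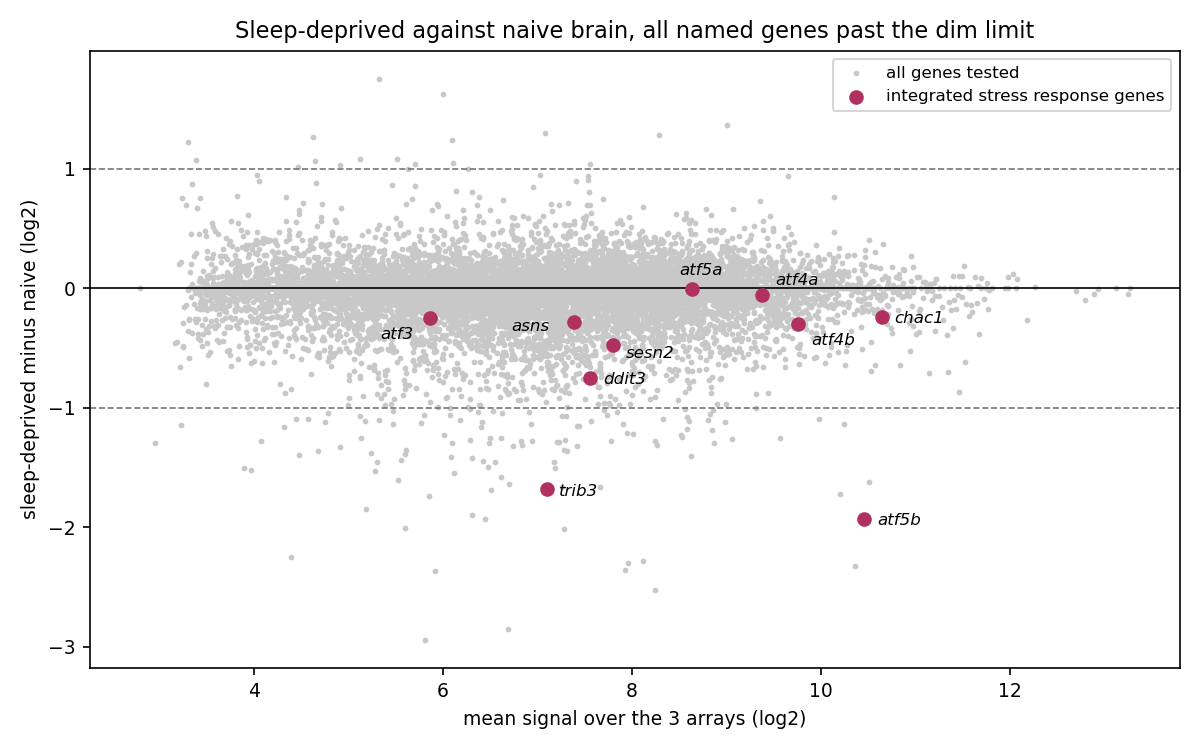
Log2 difference between the sleep-deprived and naive arrays (vertical axis) against the mean log2 signal over the 3 arrays (horizontal axis) for 17958 genes in grey, with the 10 integrated stress response genes in colour and 2-fold as dashed lines. The points of atf5b (-1.93) and trib3 (-1.68) lie below the lower dashed line, and the other 8 lie between 0 and that line.

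By Euclidean distance over the 3 arrays, each gene centred on its own mean, the genes outside the set nearest to atf5b were the ubiquitin-like modifier gene isg15 (distance 0.126), KEL (0.141) and ppp1r3c2a (0.16). Nearest to trib3 were KEL (0.059), cst14b.1 (0.087) and the immediate early gene nr4a1 (0.093), and nearest to ddit3 were tspan10 (0.016), ivns1abpb (0.024) and sprn2 (0.028). With 3 arrays and many genes, such close neighbours are easily found.

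Upstream of these genes lie the kinases, phosphatase subunits and exchange factor that set eIF2 phosphorylation and read it out. None of the 17 measured genes of this machinery was past 1.5-fold in any comparison, where at most 2.71% of all genes were lower and 0.83% higher by as much. At such shares a list of 17 genes may well hold 0. In sleep-deprived minus naive 11 (64.7%) were lower, 2 higher and 4 equal, with a median of -0.09, or -0.22 without the equal values. The signs of 2 exchange factor genes came from averaging unlike probe sets. Those of eif2b1, counted as higher, were at 0.47, 0.00 and -0.28, and those of eif2b5, counted as lower, at -0.15 and 0.08. Of all genes 30.9% were lower. Among genes with unequal values 84.6% of the list and 55.6% of all genes were lower. The gene eif2ak3, which encodes the endoplasmic reticulum kinase PERK, had the same signal, 6.56, on all 3 arrays. Between sleep-deprived and naive 44.3% of all genes had equal values, so this is no measured lack of difference. The haem-regulated kinase gene eif2ak1 had 6.96 on the naive and fear-conditioned arrays and 6.84 on the sleep-deprived array. For eif2ak2, the gene of the RNA-activated kinase, the values were 7.26 on the naive and fear-conditioned arrays and 7.05 on the sleep-deprived array. The fourth kinase gene, eif2ak4, was not analysed here. The lowest difference in the list belonged to ppp1r15a, the stress-inducible subunit of the eIF2 phosphatase and in mammals a target of the pathway itself, with signals of 7.95 on the naive, 7.99 on the fear-conditioned and 7.41 on the sleep-deprived array (-0.54 from naive). Its constitutive relative ppp1r15b had 8.10 on the naive, 8.20 on the fear-conditioned and 7.74 on the sleep-deprived array (-0.36).

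Genes of amino acid synthesis and transport, the best known group of ATF4 targets in mammals, were mostly lower on the sleep-deprived array. Of 26 measured genes 22 (84.6%) were lower, 2 higher and 2 equal, with a median of -0.35, beside 30.9% of all genes lower and a median of 0.00. Among genes with unequal values 91.7% of the list and 55.6% of all genes were lower. At least 2-fold lower were 4 (0.668% of all genes), at least 1.5-fold lower 8 (2.43%), and 0 were at least 1.5-fold higher (0.484%). The serine synthesis gene psat1 had signals of 9.16 on the naive, 8.96 on the fear-conditioned and 7.76 on the sleep-deprived array, 2.64-fold below naive. The gene slc3a2a encodes the heavy chain shared by several amino acid transporters, and was lower on both other arrays than on the naive one, at 9.20 on the naive, 8.52 on the fear-conditioned and 8.02 on the sleep-deprived array. It was the 1 gene of this list past 1.5-fold in fear-conditioned minus naive (-0.68), where 0.763% of all genes were at least 1.5-fold lower. There 9 genes of the list were lower and 14 higher, with a median of 0.04, beside 23.2% and 30.6% of all genes. Of the genes with unequal values there, 60.9% in the list and 56.8% of all genes were higher.

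The alanine aminotransferase gene gpt2 had signals of 8.16 on the naive, 8.23 on the fear-conditioned and 7.18 on the sleep-deprived array, just short of 2-fold (-0.97). Both probe sets of the glutamine and neutral amino acid transporter gene slc1a5 were 0.77 lower on the sleep-deprived than on the naive array. Its relative slc1a4, a transporter of alanine and serine, was at 9.25 on the naive, 9.81 on the fear-conditioned and 8.97 on the sleep-deprived array, so that it was highest after conditioning. In these 3 genes the sleep-deprived signal was the lowest.

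Values of the remaining genes at least 2-fold lower were less certain. For cbsa, which encodes a cystathionine beta-synthase, the signal was 4.78 on the naive array and 3.68 on the sleep-deprived one, not far above 3.45, the dim limit (difference -1.10). The mitochondrial one-carbon gene mthfd1l had 2 probe sets with unlike differences. The brighter one was at -2.06 and the other had equal values on the 3 arrays, which gave the gene a mean of -1.03, short of 2-fold once arrays were centred on the median of their named genes.

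The cytosolic aminoacyl-tRNA synthetases, which charge tRNAs with amino acids before translation, were lower on the sleep-deprived and higher on the fear-conditioned array. In sleep-deprived minus naive 17 of 19 (89.5%) were lower, 1 was higher and 1 equal (median -0.22), and 4 were at least 1.5-fold lower, beside 30.9% of all genes lower and 2.43% past that threshold. Among genes with unequal values 94.4% of the list and 55.6% of all genes were lower. In fear-conditioned minus naive 18 of 19 (94.7%) were higher and 1 was equal (median 0.25), beside 30.6% of all genes higher and a median of 0.00. Of the genes with unequal values there, all 18 in the list and 56.8% of all genes were higher. None of the 19 was past 1.5-fold in that comparison, and with arrays centred on the median of named genes, quantile normalized or freed of a trend with level, the equal gene was below 0. In sleep-deprived minus fear-conditioned, which adds no independent value, all 19 were lower, beside 34.5% of all genes, or 59.9% of those with unequal values. At least 1.5-fold lower were 7 of them, beside 2.71% of all genes. The lysyl-tRNA synthetase gene kars1 had signals of 9.13 on the naive, 9.39 on the fear-conditioned and 8.17 on the sleep-deprived array. Its sleep-deprived signal was 1.95-fold below naive, and it was the 1 synthetase gene at least 2-fold lower than on the fear-conditioned array (0.869% of all genes).

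The bifunctional glutamyl-prolyl synthetase gene eprs1 was equal on the naive and fear-conditioned arrays, at 9.84, and at 9.18 on the sleep-deprived array. For tars1, the gene of the threonyl enzyme, the signals were 7.31 on the naive, 7.51 on the fear-conditioned and 6.66 on the sleep-deprived array. The gene farsa, for a subunit of the phenylalanyl enzyme, had 9.41 on the naive, 9.69 on the fear-conditioned and 8.79 on the sleep-deprived array. In tars1 and farsa the fear-conditioned signal was the highest and the sleep-deprived one the lowest, which was also the order of yars1 (-0.57 from naive for sleep-deprived, 0.37 for fear-conditioned), iars1 (-0.37 and 0.37) and farsb (-0.20 and 0.47).

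A mixed list of other ATF4 targets and partners had 22 of 31 genes lower in sleep-deprived minus naive, 2 higher and 7 equal, with a median of -0.19, or -0.32 without the equal values. The lower genes were 71% of the list, and 30.9% of all genes were lower. Among genes with unequal values the shares were 91.7% and 55.6%. At least 2-fold lower were 4 genes (0.668% of all genes) and at least 1.5-fold lower 8 (2.43%). Several of them are induced by other signals too, glucocorticoids and low oxygen among them. The C/EBP factor gene cebpd was at 7.30 on the naive, 7.13 on the fear-conditioned and 5.66 on the sleep-deprived array, 3.11-fold below naive. The growth factor gene vegfaa had signals of 7.78 on the naive, 7.92 on the fear-conditioned and 6.63 on the sleep-deprived array. Both were lowest on the sleep-deprived array. Between the other arrays the distance was smaller, with cebpd slightly lower and vegfaa slightly higher on the fear-conditioned than on the naive array.

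The kinase gene mknk2b, whose product phosphorylates the cap-binding factor eIF4E, was at 10.68 on the naive, 10.51 on the fear-conditioned and 9.54 on the sleep-deprived array. For txnipa, whose mammalian counterpart restrains glucose uptake, the signals were 9.11 on the naive, 8.70 on the fear-conditioned and 8.00 on the sleep-deprived array. The gene ddit4, an inhibitor of mTORC1, had 8.25 on the naive, 8.42 on the fear-conditioned and 7.55 on the sleep-deprived array. All 3 had their lowest signal on the sleep-deprived array. The difference from naive was -0.79 for sleep-deprived and -0.02 for fear-conditioned in ndrg1a. For ero1a, an oxidase of disulfide formation in the endoplasmic reticulum, it was -0.71 and -0.56, so that both arrays lay below naive. Among genes of the list short of 1.5-fold, picked out after their values were seen, the sleep-deprived minus naive difference was -0.45 for cebpb, -0.31 for eif4ebp1, -0.20 for cebpg and -0.33 for stc2a, while vldlr and stc2b were equal on all 3 arrays.

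**Figure D4:**
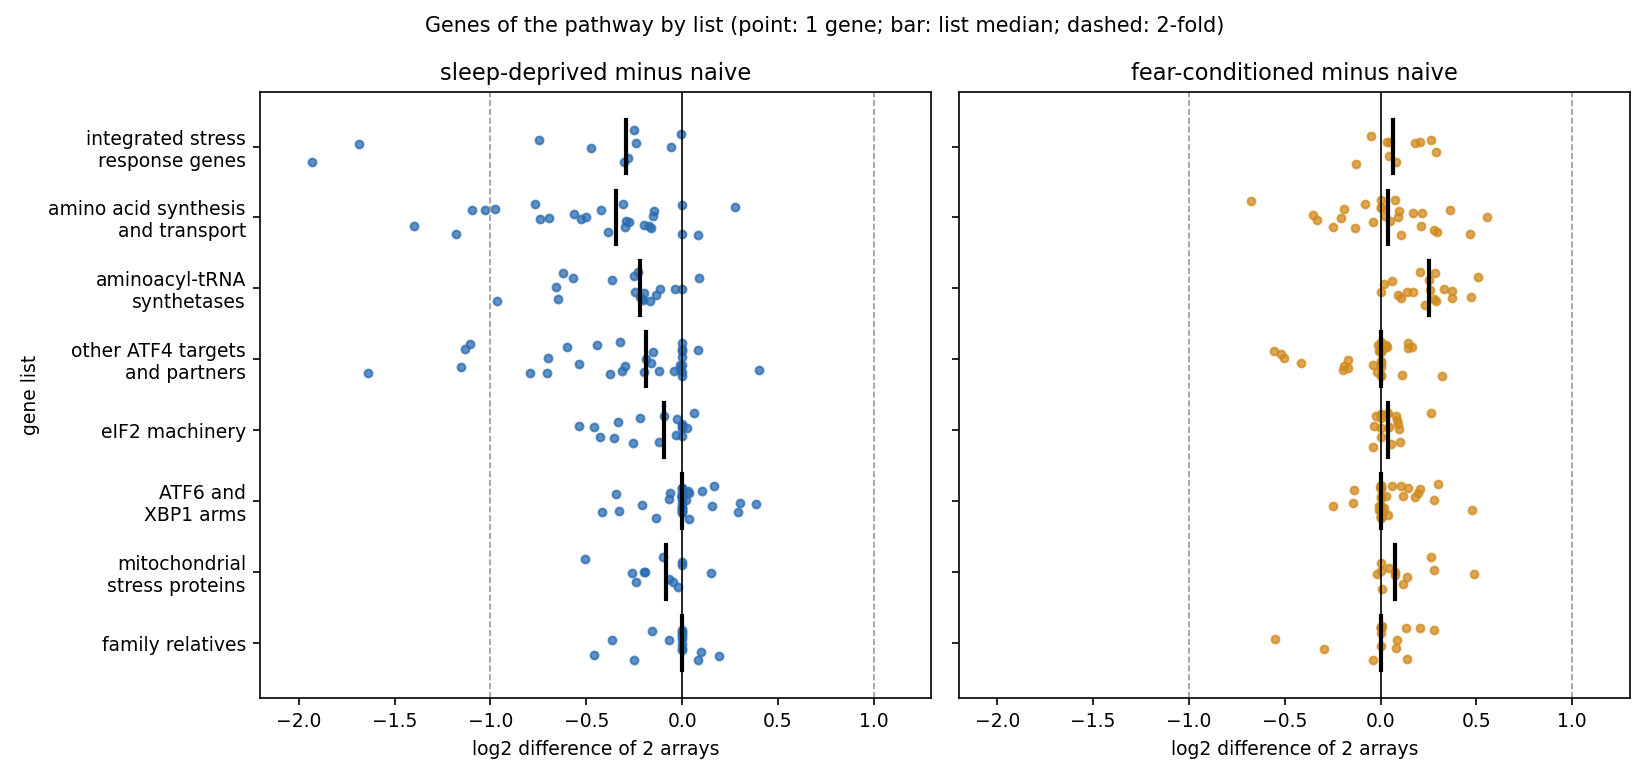
Log2 differences of single genes (points) and list medians (bars) for the 10 integrated stress response genes and 7 further lists, sleep-deprived minus naive on the left and fear-conditioned minus naive on the right, with 2-fold as dashed lines. In the left panel the medians run from -0.35 for amino acid genes to 0.00 for the ATF6 and XBP1 arms and the family relatives, and in the right panel the aminoacyl-tRNA synthetases have the highest median, 0.25.

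Together, the 3 target lists held 76 measured genes. In sleep-deprived minus naive 61 of them were lower, 5 higher and 10 equal, with a median of -0.25, beside 30.9% of all genes lower and a median of 0.00 over all genes. Equal values were fewer in the lists (13.2%) than over all genes (44.3%). Among genes with unequal values, 61 of 66 in the lists (92.4%) and 55.6% of all genes were lower. At least 1.5-fold lower were 20 of the 76, where 2.43% of all genes were, and 0 were at least 1.5-fold higher (0.484%). The lists were written with earlier results of these data known. Their counts, together or list by list, therefore say nothing about how unusual the lists are. In fear-conditioned minus naive 21 were lower, 41 higher (53.9%, beside 30.6% of all genes) and 14 equal, with a median of 0.02. Of the genes with unequal values there, 66.1% in the lists and 56.8% of all genes were higher.

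The other branches of the unfolded protein response, which run through ATF6 and XBP1 and raise chaperones of the endoplasmic reticulum, had 0 of 34 genes past 1.5-fold in any of the 3 comparisons. Over the comparisons, 0.763% to 2.71% of all genes were at least 1.5-fold lower and 0.484% to 0.83% higher. At such shares a list of 34 genes may well hold 0. In sleep-deprived minus naive 7 were lower, 10 higher and 17 equal, with a median of 0.00, or 0.03 without the equal values. Of all genes 30.9% were lower, 24.8% higher and 44.3% equal. The chaperone gene hspa5, which encodes BiP, was at 9.32 on the naive, 9.79 on the fear-conditioned and 9.47 on the sleep-deprived array. The most positive differences were those of the co-chaperone dnajb11 (0.39), calr3a (0.30) and hsp90b1 (0.29), and the most negative that of derl3 (-0.42), while xbp1 itself was at -0.33. These 5 genes and hspa5 were picked out after their values were seen.

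Mitochondrial chaperones and proteases had a median of -0.08 over 12 genes in sleep-deprived minus naive, 9 of them lower, and 0.07 in fear-conditioned minus naive, 9 of them higher. Of all genes 30.9% were lower in the former comparison and 30.6% higher in the latter. Among genes with unequal values these shares were 55.6% and 56.8% of all genes, and 90% of the list in each comparison. The protease subunit gene clpxb was the 1 gene past 1.5-fold in any comparison, at 7.21 on the fear-conditioned and 6.59 on the sleep-deprived array. In sleep-deprived minus fear-conditioned 2.71% of all genes were at least 1.5-fold lower. With arrays centred on the median of named genes clpxb was short of 1.5-fold. Among 16 family relatives of the 10 genes, 0 were past 1.5-fold in any comparison, where at most 2.71% of all genes were lower and 0.83% higher by as much. A list of 16 genes may well hold 0 at such shares. The tribbles genes trib1 and trib2 had sleep-deprived minus naive differences of -0.16 and -0.25, against -1.68 for trib3. The sestrin gene sesn1 was lower on both other arrays than on the naive one, by -0.36 for sleep-deprived and -0.30 for fear-conditioned, and sesn3 had equal values on all 3.

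Markers of other cells differed between the same arrays, and in whole brain RNA fewer cells of a type and less RNA per cell cannot be told apart. Of 18 microglia and macrophage markers, 17 were lower and 1 equal in sleep-deprived minus naive (median -0.56), beside 30.9% of all genes lower, or 55.6% of those with unequal values. At least 1.5-fold lower were 6 of them (2.43% of all genes), and at least 2-fold lower 3 (0.668%). The signals of these 18 markers, taken off the log scale and summed, were 4099 on the naive, 3053 on the fear-conditioned and 2334 on the sleep-deprived array. The summed signal of the 10 integrated stress response genes was 6634 on the naive, 7207 on the fear-conditioned and 4211 on the sleep-deprived array. Such sums are weighted to bright genes, and atf5b alone gave 2224 of the naive and 582 of the sleep-deprived sum. Without atf5b, left out after its values were seen, the other 9 genes summed to 4410 on the naive, 5058 on the fear-conditioned and 3629 on the sleep-deprived array, which put the last at 82.3% of naive. The sums of microglial, radial astroglia and endothelial markers were below naive on both other arrays. The endothelial sum was at 98.6% of naive on the fear-conditioned array, and so small a distance between single arrays is not read as a difference. The sum of the 10 genes, with or without atf5b, was below naive on the sleep-deprived array only. So were those of oligodendrocyte, red blood cell, and skin and epithelium markers.

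Against the naive array, the sum for 12 radial astroglia markers was 81.8% on the sleep-deprived and 90.5% on the fear-conditioned array. Oligodendrocyte markers (7 genes) were at 84.1% and 104%, endothelial markers (11) at 78.1% and 98.6%, red blood cell markers (8) at 77.8% and 107%, and skin and epithelium markers (13) at 93.2% and 143%. The 14 neuron markers were at 103% and 101%. The median log2 differences of single markers between sleep-deprived and naive were -0.17 for radial astroglia, 0.00 for oligodendrocytes, -0.18 for endothelium, -0.06 for red blood cells, -0.04 for skin and epithelium and 0.04 for neurons. Without the equal values the medians were -0.20 for radial astroglia, -0.13 for oligodendrocytes and -0.32 for endothelium. Those of skin and epithelium and of neurons were then -0.31 and 0.05. Among markers with unequal values, the lower ones were 63.6% for radial astroglia, 80% for oligodendrocytes and 87.5% for endothelium. For skin and epithelium they were 100%, and for neurons 8.33%. Of the 8 red blood cell markers, 5 were lower and 3 higher, and 55.6% of all genes with unequal values were lower. At least 1.5-fold lower were 3 radial astroglia, 2 red blood cell and 1 skin and epithelium markers, beside 2.43% of all genes. No oligodendrocyte, endothelial or neuron marker was. Differences of radial astroglia markers ran from -2.36 to 0.08. No marker of these lists was below the dim limit on every array. The part of these cell types in the differences of the 10 genes was not tested.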

How the data were processed

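The authors extracted total RNA with Trizol and labelled fragmented sense cDNA with biotin by a GeneChip WT terminal labelling kit, per the labels' protocols. The deposited table holds 1 value per probe set (75212) and array, read here as log2 because values run from 0.61 to 13.4; the base and the normalization method are not stated. Array medians over all probe sets were 4.99, so a shift of all genes cannot be seen.

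Symbols came from the platform annotation, which can be old. Of the probe sets, 20806 had 1 symbol, 855 several (not used) and 53551 none. RefSeq (GRCz12tu) updated 20323 through Entrez identifiers. Probe sets of a gene were averaged (19260 genes), and genes whose highest array was below 3.45, the lower quartile of all values and no measured background, were left out (1302). Log2 differences of 2 arrays were counted at 2-fold and 1.5-fold. No test is possible on single arrays, whose number limits the precision. The counting step was tested on simulated data without equal values, which checks the code and not the counts reported here.

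The members and lists were chosen with earlier results of these data known. Listed names were matched by symbol or by 1 RefSeq synonym. Named genes were all 10 members, genes of each pathway list at least 1.5-fold apart (the 6 largest per comparison), eIF2 kinases and phosphatases, sestrins, tribbles, and the 3 nearest genes to each of the 3 members with the largest sleep-deprived difference. The rule also covered marker genes, which are given by list only. Other genes named were chosen after their values were seen. The alternatives were centring on the median of each array's named genes, quantile normalization, removal of a lowess trend (fraction 0.3), the brightest probe set, no dim filter, a filter at 4.99, a floor at 3.45 and a 1.5-fold threshold. Python 3.11.15, pandas 2.3.3 and statsmodels 0.14.6 were used.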

Additional observations from a re-analysis of the deposited data

How the results depend on the processing

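The log2 differences of the 10 integrated stress response genes in 3 comparisons were recomputed under 7 alternatives. As each gene has 1 probe set and is bright on every array (5.68 at the lowest), 4 of these could not change it: the brightest probe set, no dim filter, the filter at 4.99 and the floor at 3.45. Centring, quantile normalization and lowess gave 90 values, of which 0 moved by more than 0.1, and none of the differences past 2-fold changed sign. The arrays as deposited already had equal medians (4.99). Their lower quartiles were 3.45 on the naive, 3.43 on the fear-conditioned and 3.49 on the sleep-deprived array. These alternatives therefore had little room to move a value, and such small moves say little about how firm the differences are. The difference of atf5b between sleep-deprived and naive ran from -1.93 to -1.89 and that of trib3 from -1.70 to -1.64, while atf5a ran from -0.01 to 0.04. The median of the 10 genes in that comparison ran from -0.29 to -0.25. With a 1.5-fold threshold, 4 in place of 2 of the 10 genes were lower in sleep-deprived minus fear-conditioned, because the threshold is lower. Leaving out genes with equal values, an alternative chosen after seeing the data, did not change the medians of the 10 genes, none of which had equal values. Centring on the median of named genes moved differences from naive by at most 0.0442. With it, genes at least 1.5-fold lower in sleep-deprived minus fear-conditioned were 3 in place of 4 of the 10. In sleep-deprived minus naive they were 3 in place of 4 aminoacyl-tRNA synthetases and 7 in place of 8 other ATF4 targets, and amino acid genes at least 2-fold lower were 3 in place of 4. No paired analysis was possible because each condition has 1 array. The size of any difference that fish of 1 condition would show among themselves is not known from these arrays.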
